A study of Mus musculus with 6 samples.

Results

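The genes described are the subunits of the transcription factor NF-kB and the inhibitors that restrain it, several of which it induces itself, measured in macrophages of mouse atherosclerotic plaque. They are 10 of the 41388 genes in the deposited count tables: the subunit genes Rela, Rel, Relb, Nfkb1 and Nfkb2, and the inhibitor genes Nfkbia, Nfkbib, Nfkbie, Nfkbiz and Tnfaip3. Each was found by matching its symbol to the Ensembl identifier of the tables through the GENCODE annotation of GRCm38, and each of the 10 matched 1 row and passed the filter on low counts. The foamy group was 3 libraries of live CD64+CD11b+ cells with high BODIPY493/503 signal, a stain of neutral lipid, and high side scatter, from the aortic intima. The non-foamy group was 3 libraries of live CD64+CD11b+ cells low in both, from the same tissue. Both groups came from C57BL/6 mice with the ApoE -/- genotype on a Western diet (WD) for 28 weeks, per the series design, which gives 6 mice. Age is not given in the labels, and no group without the deletion was analysed here. The labels do not tie mice to libraries, and p-values therefore describe the scatter among the 6 libraries alone, and that scatter may be technical.

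NF-kB proteins pair into dimers that an IkB protein holds in the cytoplasm of a resting cell. Signals from Toll-like receptors, interleukin-1 and tumour necrosis factor activate the IkB kinase (IKK), the IkB protein is degraded, and the dimer moves to the nucleus. Among the genes it then transcribes are several of its own inhibitors, which end the response, and in macrophages it drives many inflammatory cytokine and chemokine genes. Rela, Rel and Relb encode the subunits that carry a transactivation domain, while Nfkb1 and Nfkb2 encode precursors that are processed into DNA-binding partners.

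The promoters of 4 genes, chosen with their calls known, are shown. Those of Nfkbia, Rel and Tnfaip3 hold a match of the kappaB consensus, a sequence that NF-kB binds. That of Rela holds none in the 250 bases searched. All 4 were taken from RefSeq on GRCm38.p6, in which 7 of the 10 genes had an entry. The sequences are written in the direction of the gene, without stretches that GENCODE M21 places in an exon of that gene. Nfkbia, Rel and Tnfaip3 were lower in foamy libraries, and Rela was not called. Nfkb2 and Nfkbie, which held a match and were not called, are not printed. Capitals mark matches of the kappaB consensus on either strand.
Nfkbia (chr12:55492648-55492897, minus strand): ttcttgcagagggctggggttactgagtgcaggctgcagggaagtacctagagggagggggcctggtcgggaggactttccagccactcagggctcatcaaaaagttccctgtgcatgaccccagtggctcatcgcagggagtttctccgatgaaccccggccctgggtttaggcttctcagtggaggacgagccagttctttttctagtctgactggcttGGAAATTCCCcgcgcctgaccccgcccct
Rel (chr11:23770971-23771219, minus strand): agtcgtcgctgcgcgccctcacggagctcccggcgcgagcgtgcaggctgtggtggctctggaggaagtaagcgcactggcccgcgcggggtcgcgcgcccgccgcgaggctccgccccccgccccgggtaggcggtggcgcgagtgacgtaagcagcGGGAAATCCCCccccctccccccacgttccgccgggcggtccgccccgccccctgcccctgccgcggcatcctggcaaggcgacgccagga
Tnfaip3 (chr10:19015411-19015547, minus strand): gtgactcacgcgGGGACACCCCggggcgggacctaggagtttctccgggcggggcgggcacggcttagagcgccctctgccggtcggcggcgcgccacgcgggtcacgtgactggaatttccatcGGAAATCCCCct
Rela (chr19:5637291-5637482, plus strand): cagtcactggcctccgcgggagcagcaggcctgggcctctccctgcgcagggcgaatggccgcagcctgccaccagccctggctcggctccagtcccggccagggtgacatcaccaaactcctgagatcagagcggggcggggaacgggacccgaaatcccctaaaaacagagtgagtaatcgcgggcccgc

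The consensus was searched in the 250 bases before each start. In Nfkbia it matched at positions -29 to -20 relative to the start, as GGGAATTTCC on the opposite strand. In Rel, overlapping matches on both strands covered -92 to -82. Tnfaip3, before its first start, had GGGACACCCC at -125 to -116 and GGGGATTTCC, on the opposite strand, at -12 to -3. Nfkb2 held a match before each of its 3 starts and Nfkbie had GGGGGATTCC at -106 to -97, so that 5 of the 7 genes, and 7 of their 10 promoters, had one. Rela, Nfkbib and the second start of Tnfaip3 had none in this window. At the second start of Nfkb2 and those of Nfkbib and Nfkbie, the bases after the start were not found in a GENCODE transcript. Of all 32851 promoters in the table, 3.90% held the consensus. Matches and calls did not line up throughout: Nfkb2 and Nfkbie held a match and were not called. Nfkbiz, which was lower in foamy libraries, had no promoter entry. A match describes the letters only.

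Depth was 18592421 to 24279802 counts in genes in the foamy libraries and 15628627 to 24619075 in the non-foamy libraries. edgeR tested 11303 genes, of which 5.41% reached an adjusted p of 0.05 in either direction, 2.90% being lower and 2.50% higher in foamy libraries. Macrophage genes were present in both groups. The summed level of 10 macrophage markers, in CPM after TMM scaling (counts scaled to a common library size), was 55540 to 63590 in foamy and 23950 to 37650 in non-foamy libraries. Of the sum, Lyz2 alone made up 33530 to 35330 CPM in foamy and 10760 to 16490 CPM in non-foamy libraries. In foamy libraries 3 of the 10 were higher: Lyz2, Cd68 and Mertk (log2 fold changes 1.26, 0.97 and 1.37). Another 3 were lower: Itgam, Adgre1 and Csf1r (-0.87, -0.83 and -1.28). Some markers of monocytes, dendritic cells, lymphocytes and neutrophils differed between the groups, and the values of these lists are given after the pathway genes.

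Taken by role, RNA of 1 subunit and 3 inhibitors was lower in foamy macrophages. They were Rel among the subunits, and Nfkbia, Nfkbiz and Tnfaip3 among the inhibitors, with log2 fold changes, foamy over non-foamy, of -2.47, -2.18, -2.56 and -1.16. Rela, the most widely expressed transactivating subunit, was not called (-0.14). In all, 4 of the 10 genes were lower and none was higher at an edgeR adjusted p of 0.05, where 2.90% of all tested genes were lower. DESeq2 also called 4 of the 10, all lower, where it called 5.83% of its tested genes lower and 4.77% higher (10.6% in all). The test against a 1.5-fold change called 3, all lower, where it called 1.51% of genes lower and 0.929% higher (2.44% in all). The log2 fold change, foamy over non-foamy, was below 0 in each of the 10 genes, with a median of -1.15 beside -0.04 over all genes tested. In 6 of the 10 genes each foamy library lay under each non-foamy library, as in 13.3% of the genes tested. In these sorted bulk samples, fewer cells of a type that carries a transcript and less of it per cell cannot be told apart.

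**Figure D1:**
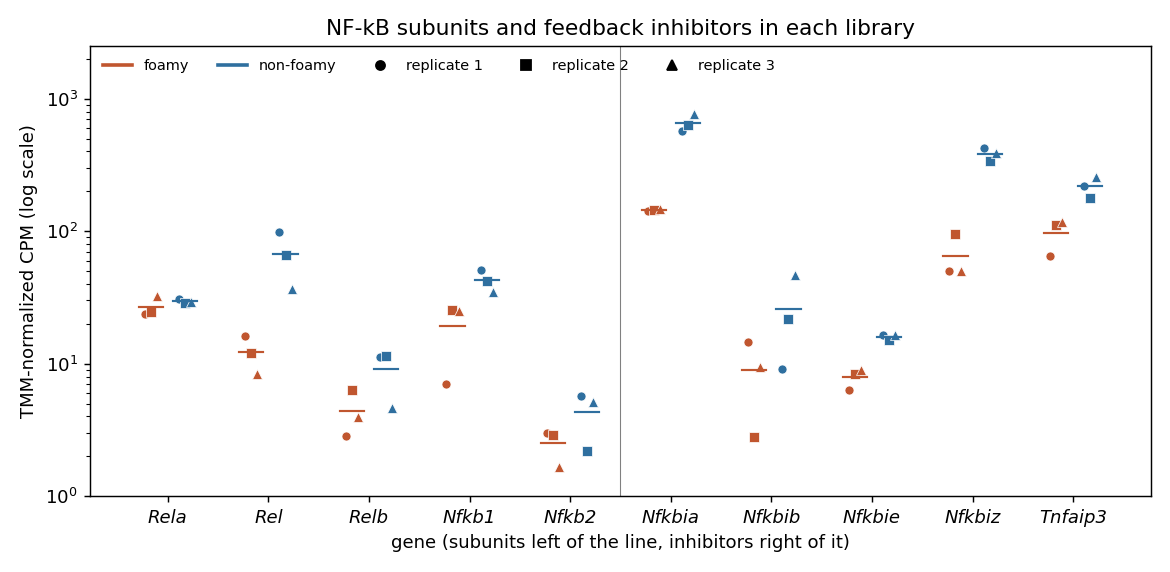
TMM-normalized CPM on a log axis for each of the 10 genes, with foamy libraries left of non-foamy libraries, a symbol for each replicate and a line at the mean of 3. The foamy and non-foamy points of Rela overlap, whereas those of Rel, Nfkb1, Nfkbia, Nfkbie, Nfkbiz and Tnfaip3 do not.

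Among the subunits, Rel (ENSMUSG00000020275, chromosome 11 from 23741514 to 23770970 on GRCm38 in the deposited tables), which encodes c-Rel, a subunit found mostly in blood and immune cells, differed most. It had 16.2, 12.0 and 8.3 CPM in foamy libraries, against 98.8, 66.4 and 36.7 CPM in the non-foamy libraries. The groups did not overlap, although the non-foamy values spread 2.69-fold among themselves. Its means were 12.2 ± 3.94 CPM (foamy) and 67.3 ± 31.1 CPM (non-foamy; SD, n = 3 each), a log2 fold change of -2.47 (SE 0.39, edgeR quasi-likelihood test, adjusted p = 0.0040). The call held in each of the 12 alternative analyses, with log2 fold changes from -2.78 to -2.09. These levels rest on 154 to 341 reads per foamy library and 933 to 1824 per non-foamy library.

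Rela (ENSMUSG00000024927, chromosome 19 from 5637483 to 5648130) had 23.6, 24.7 and 32.2 CPM in foamy libraries, against 30.9, 28.9 and 29.0 CPM in the non-foamy libraries. The foamy values lay on both sides of the non-foamy ones. The log2 fold change was -0.14 with a 95% interval of -0.72 to 0.43 (SE 0.26, edgeR adjusted p = 0.85), which covers a modest fall as well as a modest rise. Over all 6 libraries, the highest value of Rela was 1.37 times the lowest, less than in any other of the 10 genes.

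Nfkb1 (ENSMUSG00000028163, chromosome 3 from 135584655 to 135691547), whose product is the usual partner of Rela, had 7.07, 25.6 and 24.9 CPM in foamy libraries, against 50.9, 41.9 and 34.9 CPM in the non-foamy libraries. The groups did not overlap, as in 25.7% of all tested genes, but foamy replicate 1 stood well under the other two. The log2 fold change was -1.15 (SE 0.42, edgeR adjusted p = 0.16), and -0.75 without foamy replicate 1 (adjusted p = 0.27). Nfkb1 was not called in any alternative.

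The genes of the non-canonical arm of the pathway were at low levels. Relb (ENSMUSG00000002983, chromosome 7 from 19606217 to 19629438) had 2.85, 6.35 and 3.94 CPM in foamy libraries, against 11.2, 11.5 and 4.61 CPM in the non-foamy ones, and its log2 fold change was -1.05 (SE 0.55; adjusted p = 0.36 by edgeR). Its partner Nfkb2 (ENSMUSG00000025225, chromosome 19 from 46304737 to 46312090) had 2.99, 2.90 and 1.67 CPM in foamy libraries, against 5.69, 2.20 and 5.12 CPM in the non-foamy ones, and its log2 fold change was -0.78 (SE 0.68; adjusted p = 0.62 by edgeR). Both overlapped between groups, and 95% intervals of -2.27 to 0.17 for Relb and -2.27 to 0.71 for Nfkb2 covered both a several-fold fall and no change. Nfkb2 was counted from 31 to 63 reads per foamy library and 40 to 130 per non-foamy library.

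Nfkbia (ENSMUSG00000021025, chromosome 12 from 55489411 to 55492647) encodes IkB alpha, the fast-acting inhibitor that carries NF-kB back out of the nucleus. It had 143, 144 and 147 CPM in foamy libraries, against 568, 636 and 759.6 CPM in the non-foamy libraries. The foamy values were almost identical, with a coefficient of variation of 1.36%, and lay far under the non-foamy ones, whose coefficient was 14.8%. The level in foamy libraries was lower by a log2 fold change of -2.18 (SE 0.18, edgeR adjusted p = 6.1e-05), which is a 4.52-fold higher level in non-foamy libraries. By p-value it ranked 17 among the 11303 genes tested. The call held in all 12 alternatives, from -2.44 to -2.04.

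Nfkbiz (ENSMUSG00000035356, chromosome 16 from 55811375 to 55838899) encodes IkB zeta, a nuclear IkB protein that also helps switch on secondary NF-kB targets. It had 50.2, 94.5 and 50.4 CPM in foamy libraries, against 424, 339 and 389.7 CPM in the non-foamy libraries. Foamy replicate 2 was the highest of its group and was still under every non-foamy library. The log2 fold change was -2.56 (SE 0.27, edgeR adjusted p = 2.6e-04), the lowest of the 10 genes, and the call held in all 12 alternatives, from -2.92 to -2.40.

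Tnfaip3 (ENSMUSG00000019850, chromosome 10 from 19000910 to 19015657) encodes a ubiquitin-editing enzyme that shuts down signalling upstream of IKK. It had 65.2, 110.5 and 117 CPM in foamy libraries, against 218, 177 and 258 CPM in the non-foamy libraries. The groups did not overlap, and the log2 fold change was -1.16 (SE 0.25, edgeR adjusted p = 0.021). This call was less stable than those of Rel, Nfkbia and Nfkbiz. Leaving out 1 library ended it for foamy replicate 1 (log2 fold change -0.93, adjusted p = 0.079), foamy replicate 2 (-1.24, 0.070), foamy replicate 3 (-1.30, 0.051) or, of the other group, replicate 3 (-1.003, 0.067), and so did a test against a 1.5-fold change (adjusted p = 0.14).

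Nfkbie (ENSMUSG00000023947, chromosome 17 from 45555716 to 45563169), which encodes IkB epsilon, had 6.31, 8.36 and 9.01 CPM in foamy libraries, against 16.4, 15.2 and 16.6 CPM in the non-foamy libraries. The groups did not overlap, but the gene was not called in any of the analyses (main log2 fold change -1.02, SE 0.36; adjusted p = 0.15 by edgeR).

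Nfkbib (ENSMUSG00000030595, chromosome 7 from 28758251 to 28767512), which encodes IkB beta, was the most variable of the 10 genes. It had 14.7, 2.79 and 9.44 CPM in foamy libraries, against 9.05, 21.9 and 46.4 CPM in the non-foamy libraries. The values overlapped and spread 5.28-fold within the foamy and 5.13-fold within the non-foamy group. The log2 fold change of -1.52 (SE 0.64, edgeR adjusted p = 0.23) was -0.77 without non-foamy replicate 3 (adjusted p = 0.58), and the gene was called only when no filter on low counts was applied (-1.46, adjusted p = 0.014). Of the exonic sequence listed for Nfkbib, 42 bases are shared with Sirt2 on the other strand, which had 2517 to 6089 counts per library, and 311 with Ccer2, which had 0 to 4. Whether counting used strand is not given in the sources used here. The value of Nfkbib is uncertain to that extent.

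**Figure D2:**
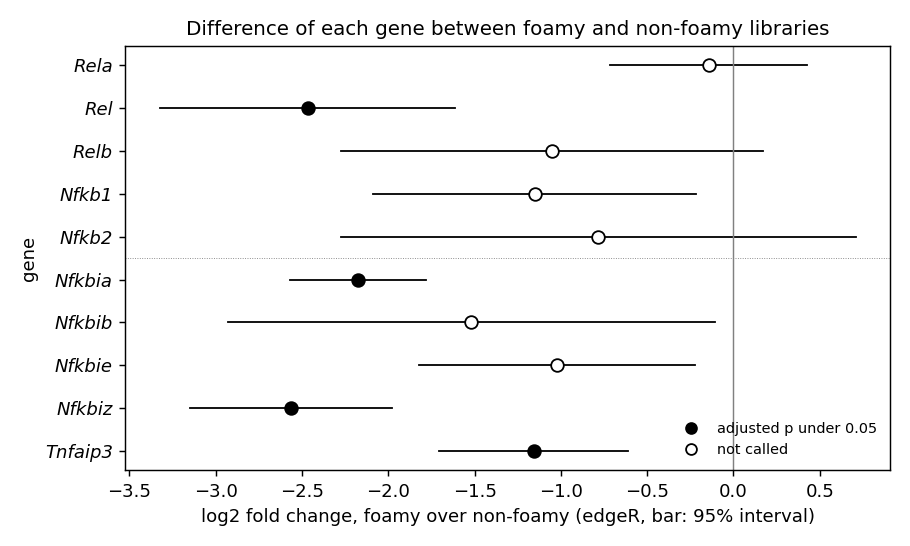
Log2 fold change of each gene, foamy over non-foamy, from the edgeR fit, with 95% intervals as bars and subunits above the dotted line. Filled points passed an adjusted p of 0.05: Rel at -2.47, Nfkbia at -2.18, Nfkbiz at -2.56 and Tnfaip3 at -1.16.

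Levels were compared between genes per kilobase of the deposited gene length. Nfkbia led in both groups, at 91.8 ± 1.25 CPM per kilobase in foamy and 415 ± 61.6 in non-foamy libraries (SD, n = 3 each), and in each group its lowest library was above the highest library of the next gene. In foamy libraries Tnfaip3 (13.5 ± 3.92 CPM per kilobase) and Nfkbiz (12.96 ± 5.09) followed, and their values overlapped. Next came Rela at 9.88 ± 1.73 CPM per kilobase, above Rel at 4.34 ± 1.41, Nfkbib at 4.14 ± 2.76 and Nfkb1 at 4.01 ± 2.19, which overlapped one another. Nfkb1 also overlapped Nfkbie at 3.26 ± 0.58, while Relb at 1.13 ± 0.46 and Nfkb2 at 0.77 ± 0.22 lay below and overlapped. In non-foamy libraries Nfkbiz (76.6 ± 8.46 CPM per kilobase) stood above Tnfaip3 (30.1 ± 5.61), which overlapped Rel (24.1 ± 11.1). Nfkbib at 11.9 ± 8.75, Rela at 10.9 ± 0.42 and Nfkb1 at 8.90 ± 1.67 followed without separating. Nfkbie at 6.62 ± 0.31 was next, and Relb at 2.34 ± 0.996 and Nfkb2 at 1.32 ± 0.57 were again lowest.

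Per length, the most abundant subunit RNA was that of Rela in each foamy library and that of Rel in each non-foamy library. Of the summed per-length level of the 5 subunit genes, Rela made up 49.4%, 42.8% and 55.0% in foamy libraries, against 18.4%, 22.8% and 31.6% in non-foamy libraries. Rel made up 32.9%, 20.2% and 13.8% in foamy libraries, against 57.0%, 50.8% and 38.8% in non-foamy libraries. The ratio of Rel to Rela, which does not depend on how a library is scaled, was 0.67, 0.47 and 0.25 in foamy libraries, against 3.10, 2.23 and 1.23 in non-foamy libraries. Shares of Nfkb1 averaged 19.3 ± 9.40% in foamy and 19.2 ± 2.23% in non-foamy libraries. The shares and ratios are a description, with no test.

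Ratios of inhibitor to subunit RNA were set beside each other in the same way, again without a test. The ratio of Nfkbia to Rela per length was 10.5, 10.1 and 7.86 in foamy libraries, against 31.6, 37.9 and 45.1 in non-foamy libraries. That of Tnfaip3 to Rela was 1.04, 1.68 and 1.37 in foamy libraries, against 2.65, 2.30 and 3.34 in non-foamy libraries. Neither ratio overlapped between the groups. As Rela varied only 1.37-fold over the 6 libraries, both ratios largely restate the differences of Nfkbia and Tnfaip3 given above. Summed over the 5 inhibitor and the 5 subunit genes, the ratio was 6.78, 6.14 and 5.92 in foamy libraries, against 7.85, 10.9 and 18.4 in non-foamy libraries, where it was far more variable. With Nfkb1 in place of Rela, the ratio to Nfkbia overlapped: 61.4, 17.1 and 17.9 in foamy libraries, against 33.9, 46.0 and 65.9 in non-foamy libraries. Nfkbia supplied a similar part of the inhibitor sum in both groups, 70.2% to 76.2% in foamy and 74.2% to 78.8% in non-foamy libraries.

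**Figure D3:**
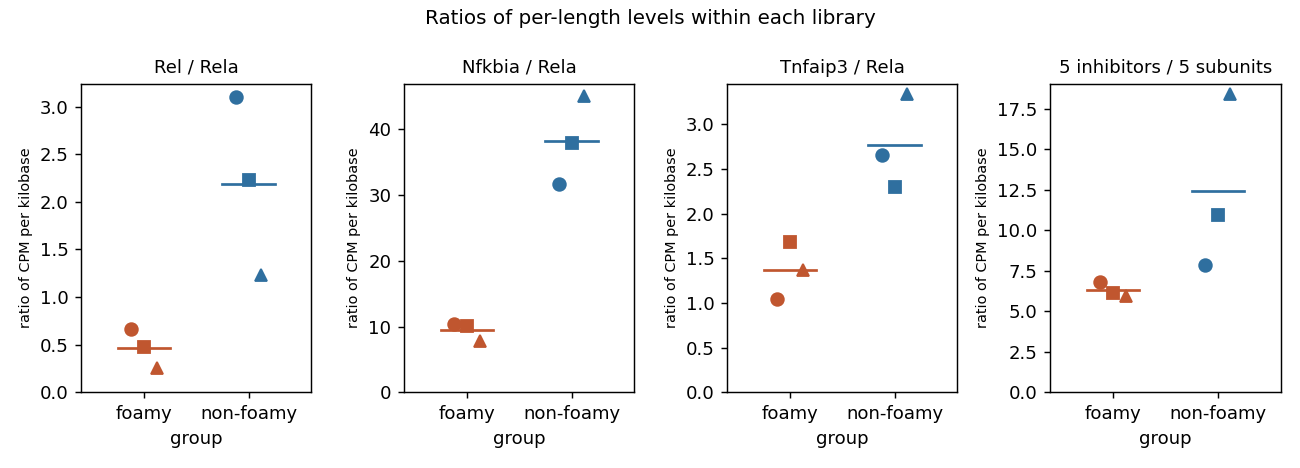
Ratios of CPM per kilobase within each library, with foamy libraries left of non-foamy libraries and a line at the mean of 3. Rel over Rela lies between 0.25 and 0.67 in the foamy group and between 1.23 and 3.10 in the non-foamy group, and the inhibitor to subunit ratio between 5.92 and 6.78 in foamy and 7.85 and 18.4 in non-foamy.

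The machinery around these genes was described from lists of pathway genes chosen by role. Among 17 kinases and kinase subunits, the median log2 fold change was -0.27, and 1 gene was lower in foamy libraries with none higher, a share near the 2.90% lower and 2.50% higher among all genes tested. That gene was Map3k8, a kinase that the Nfkb1 precursor holds inactive, at 40.4, 26.1 and 24.9 CPM in foamy libraries, against 118, 57.4 and 74.1 CPM in the non-foamy ones, and its log2 fold change was -1.45 (SE 0.31; adjusted p = 0.021 by edgeR). Its call was lost when foamy replicate 2 (-1.34), foamy replicate 3 (-1.31) or, in the other group, replicate 1 (-1.11) was left out, and against a 1.5-fold change. The genes of the IKK complex, named after their values were seen, were not called. Ikbkb, the main catalytic subunit of the canonical arm, had a log2 fold change of -0.42 (edgeR adjusted p = 0.33). Chuk, the other catalytic subunit, had -0.43 (edgeR adjusted p = 0.46), and Ikbkg, the regulatory subunit, had 0.17 (edgeR adjusted p = 0.90).

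Of 19 adaptor and ubiquitin ligase genes, 2 were lower and none higher, where 2.90% of all tested genes were lower, with a median of -0.21. Birc3, a ubiquitin ligase gene that NF-kB induces, had 12.7, 20.9 and 20.8 CPM in foamy libraries, against 63.3, 71.1 and 39.8 CPM in the non-foamy ones, and its log2 fold change was -1.68 (SE 0.31; adjusted p = 0.0095 by edgeR). Birc2, its close relative, had 4.41, 5.07 and 7.66 CPM in foamy libraries, against 18.0, 18.2 and 26.2 CPM in the non-foamy ones, and its log2 fold change was -1.86 (SE 0.39; adjusted p = 0.018 by edgeR). The call of Birc2 was lost when foamy replicate 1 (-1.70), foamy replicate 2 (-1.78) or, in the other group, replicate 3 (-1.65) was left out, and against a 1.5-fold change. These paralogs have related sequences, and reads that fit both cannot be assigned with certainty.

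Of 18 negative regulators of the pathway outside the 10 genes, 1 was lower and 1 higher, with a median of -0.04, where 2.90% of all tested genes were lower and 2.50% higher. The number lower depended on the analysis: it was 4 with DESeq2, 3 with the replicate number as a block, 3 with no filter, 2 with scaling by total counts alone and 2 without foamy replicate 1. The lower one was Tnip3, whose product binds that of Tnfaip3 and which is itself inducible, at 24.1, 32.5 and 21.4 CPM in foamy libraries, against 76.0, 93.5 and 58.4 CPM in the non-foamy ones, and its log2 fold change was -1.55 (SE 0.27; adjusted p = 0.0070 by edgeR). The higher one was Tollip, a brake on Toll-like and interleukin-1 receptor signalling, at 37.4, 44.4 and 38.7 CPM in foamy libraries, against 22.7, 12.1 and 18.5 CPM in the non-foamy ones, and its log2 fold change was 1.18 (SE 0.30; adjusted p = 0.044 by edgeR). The Tollip call was lost in 8 of 12 alternatives: when foamy replicate 1 (1.23), 2 (1.11) or 3 (1.21), or replicate 2 (0.97) or 3 (1.22) of the other group, was left out, with scaling by total counts alone (0.90), with the replicate number as a block (1.22) and against a 1.5-fold change. The other nuclear IkB genes were split: Nfkbid was lower, at 5.03, 3.96 and 2.00 CPM in foamy libraries, against 19.1, 27.9 and 17.5 CPM in the non-foamy ones, and its log2 fold change was -2.55 (SE 0.45; adjusted p = 0.0078 by edgeR), and Bcl3 was not called (-0.92, adjusted p = 0.65).

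Textbook target genes of NF-kB, among them cytokine and chemokine genes, were described as a list of their own. Of 35 targets, 30 were tested. Their median log2 fold change was -1.87, and 13 were lower in foamy libraries and 0 higher, where 2.90% of all tested genes were lower. The smallest p-values belonged to the cytokine gene Il1b and the chemokine genes Ccl3, Cxcl2 and Ccl2. Il1b had 53.7, 50.5 and 28.4 CPM in foamy libraries, against 634, 832 and 992 CPM in the non-foamy ones (log2 fold change -4.21, SE 0.29; adjusted p = 3.2e-05 by edgeR). Ccl3 had 172, 202 and 185 CPM in foamy libraries, against 1011, 1626 and 1853 CPM in the non-foamy ones (log2 fold change -3.00), and Cxcl2 and Ccl2 had log2 fold changes of -2.51 and -2.61. Other targets overlapped between the groups, among them Sod2 (log2 fold change -0.05, edgeR adjusted p = 0.96), Icam1 (-0.13, adjusted p = 0.91) and Cd40 (-0.24, adjusted p = 0.74), which were picked as examples after their values were seen. Il6, Il23a, Ccl20, Nos2 and Csf2 did not pass the filter on low counts.

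**Figure D4:**
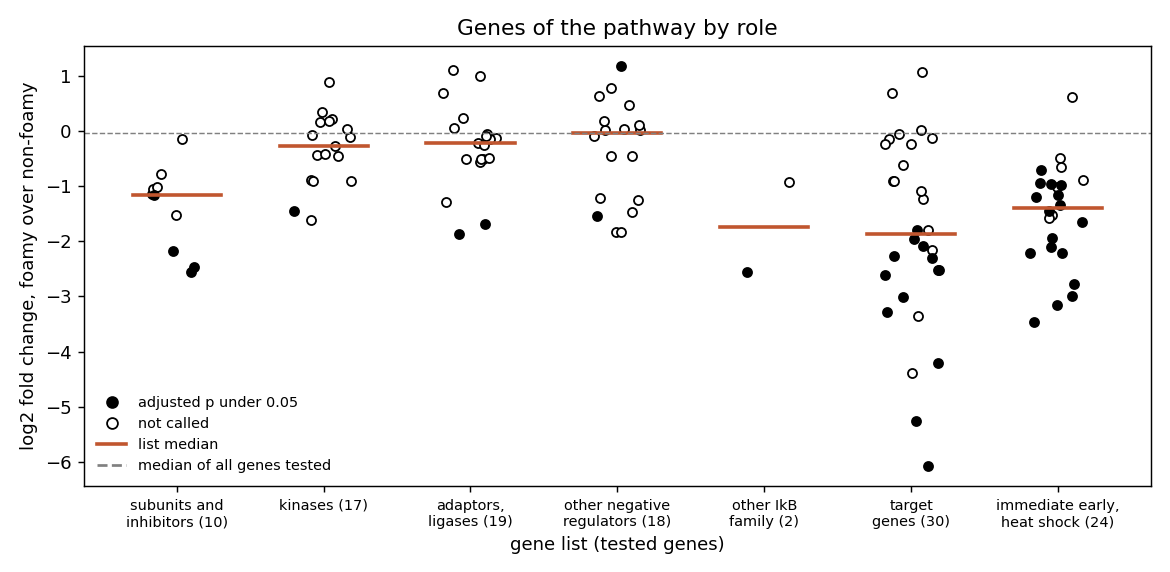
Log2 fold change, foamy over non-foamy, of each tested gene by role, with the number tested in brackets, filled points for an edgeR adjusted p under 0.05 and a bar at the list median. The medians are -1.15 for the subunits and inhibitors, -0.27 for kinases, -0.21 for adaptors and ligases, -0.04 for other negative regulators, -1.74 for the other IkB genes, -1.87 for targets and -1.396 for immediate early and heat shock genes.

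Other transcripts moved with these genes. Of 24 tested immediate early and heat shock genes, which warm enzymatic digestion can induce together with Nfkbia and Nfkbiz, 17 were lower in foamy libraries and 0 higher, where 2.90% of all tested genes were lower, and their median was -1.396. The number lower was 8 without foamy replicate 3, 11 without foamy replicate 1 and 10 against a 1.5-fold change. The smallest p-values belonged to Nr4a1, Hspa1a (log2 fold change -3.15), Hspa1b (-3.46) and Btg2 (-1.66). The other heat shock genes on the list were mixed. Dnajb1 was lower (-2.21), and Hspa8 (-0.66), Hsp90aa1 (-0.895) and Hsph1 (0.62) were not called. For Hsph1 each foamy library lay above each non-foamy library, as in 12.4% of the genes tested. The summed level of all 25 genes on the list was 2983 to 3574 CPM in the foamy and 7035 to 9274 CPM in the non-foamy libraries. The orphan receptor gene Nr4a1 had 15.9, 21.5 and 25.9 CPM in foamy libraries, against 181, 162 and 157 CPM in the non-foamy ones, with a log2 fold change of -2.98. Both groups went through digestion, and the part of it, or of these transcripts, in the values of the NF-kB genes was not tested.

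Of 10 tested monocyte markers, 6 were lower in foamy libraries and none higher, where 2.90% of all tested genes were lower, and the summed level of the 11 on the list was 50.8 to 59.6 CPM in the foamy and 508 to 847 CPM in the non-foamy libraries. They included Plac8, Cx3cr1, F13a1 and Ccr2. Of the sum, Cx3cr1 alone made up 25.2 to 28.5 CPM in foamy and 147 to 167 CPM in non-foamy libraries. Ccr2, the chemokine receptor of inflammatory monocytes, had 6.08, 5.63 and 1.4 CPM in foamy libraries, against 242, 322 and 208 CPM in the non-foamy libraries. Of the 8 dendritic cell markers, whose summed level was 0.380 to 16.1 CPM in the foamy and 33.5 to 256 CPM in the non-foamy libraries, 1 was tested. That was Cd209a, which monocyte-derived cells also express, at 0.190, 14.5 and 0.324 CPM in foamy libraries, against 178, 249 and 32.2 CPM in the non-foamy libraries. Of the 7 untested ones, Ccr7 had 0, 0 and 0 CPM in foamy libraries, against 11.4, 2.92 and 0 CPM in the non-foamy libraries, Flt3 reached 0.223 CPM in the foamy and 5.09 CPM in the non-foamy libraries, and Siglech was at 0 in the foamy libraries and reached 2.75 CPM in the non-foamy ones. Zbtb46 was at no more than 0.108 CPM in the foamy and at 0.275 to 1.68 CPM in the non-foamy libraries, Xcr1 and Itgae stayed under 1 CPM in each library, and Clec9a, at 0 in the non-foamy group, reached 1.78 CPM in the foamy group. Of the 6 B cell markers 2 were tested and 1, Ighm, was lower. Ighm had 111, 75.9 and 79.9 CPM in foamy libraries, against 555, 679 and 641 CPM in the non-foamy libraries. Cd79b was not called (log2 fold change 0.22, edgeR adjusted p = 0.82). Most of the B cell sum, 94.2 to 124 CPM in the foamy and 579 to 694 CPM in the non-foamy libraries, came from Ighm. Of the 10 T and NK cell markers 3 were tested and 2 were higher in foamy libraries: Cd4, which macrophages can also express, at 11.4 to 21.4 CPM in the foamy and 0.472 to 3.47 CPM in the non-foamy libraries, and Klrb1c, at 0.701 to 4.22 CPM in the foamy and 0 to 0.108 CPM in the non-foamy libraries. Cd2 reached 4.79 CPM in the foamy and 15.8 CPM in the non-foamy libraries, Cd3e was at 0 in foamy libraries and at no more than 0.055 CPM in the non-foamy libraries, and the list summed to 19.0 to 26.1 CPM in the foamy and 0.98 to 19.6 CPM in the non-foamy libraries. Of the 10 neutrophil markers 5 were tested, Mmp8 was higher, at 29.9 to 44.7 CPM in the foamy and 4.61 to 7.53 CPM in the non-foamy libraries, and S100a9 lower, at no more than 0.054 CPM in the foamy and 1.30 to 16.95 CPM in the non-foamy libraries. Csf3r, which was not called, had 13.3 to 25.1 CPM in the foamy and 6.55 to 9.33 CPM in the non-foamy libraries, Ly6g reached 0.163 CPM in 1 non-foamy library and was at 0 in the others, and Camp was at 0 in every library. The neutrophil list summed to 45.7 to 72.9 CPM in the foamy and 16.5 to 46.8 CPM in the non-foamy libraries. No smooth muscle marker (4 tested of 7; sums of 3.18 to 30.7 CPM in the foamy and 6.99 to 28.7 CPM in the non-foamy libraries) or endothelial marker (3 tested of 7; sums of 9.81 to 14.2 CPM in the foamy and 13 to 16.5 CPM in the non-foamy libraries) was called. Of the endothelial markers, Kdr reached 8.47 CPM in the foamy and 7.72 CPM in the non-foamy libraries and Vwf 6.98 CPM in the foamy and 6.94 CPM in the non-foamy libraries, while Cdh5 stayed at no more than 0.279 CPM in the foamy and 0.220 CPM in the non-foamy libraries. The part of these cell type differences in the values of the NF-kB genes was not tested.

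The gene whose pattern over the 6 libraries was nearest to that of Nfkbia was Ehd1, among 6070 tested genes with a mean of at least 10 CPM. Nearness was the root mean square distance between log2 CPM values after each gene's own mean was subtracted, and it was 0.155 for Ehd1, which encodes a protein of endosomal recycling. Tmem176a (0.178), the transcription factor gene Ets2 (0.20), the non-coding RNA gene Snhg15 (0.204) and Hmgb2 (0.214) followed. By the same measure Tnfaip3 was nearest to Cflar, a regulator of cell death (0.180), Nfkbiz to Errfi1 (0.215), Rela to the kinase gene Jak1 (0.061), Nfkbie to Tgif1 (0.102) and Nfkb1 to Maco1 (0.20). Rel was nearest to Trem1 at a distance of 0.344 and Nfkbib to Irf7 at 0.360, the longest distances among the 10 genes. Relb was nearest to Zmiz2 (0.243) and Nfkb2 to Utp18 (0.146).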

How the data were processed

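RNA of 3 foamy and 3 non-foamy macrophage libraries was sequenced as single 50-base reads from amplified cDNA, per the labels' protocols. No molecular identifiers are mentioned there, and a read need not be a separate molecule. Per the submitters' processing notes the build was GRCm38 and the tools included featureCounts 1.4.5, Subread and STAR 2.0.4b. Whether counting used strand, and how multiply mapped reads were treated, is not given in the sources used here. The deposited counts are whole reads per gene, and the tests used them. The deposited CPM equal the counts scaled by each library's total in genes, and the deposited RPKM equal that CPM per kilobase of the listed length. Both were checked for all 41388 genes (tolerance 1e-06) and used no further. Symbols were found for 40254 identifiers, which held at least 99.71% of each library's counts.

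Genes were tested with edgeR 4.0.16 in R 4.3.3 (filterByExpr, TMM factors, robust quasi-likelihood F-test), and p-values of the 11303 genes were adjusted together by Benjamini-Hochberg. SEs are the size of the log2 fold change over the square root of F, and 95% intervals use that SE with the fit's degrees of freedom (scipy 1.17.1). Values printed as CPM are counts over the TMM-scaled library size, and per-length levels divide these by kilobases. The code was tested on simulated counts. Alternatives were RLE factors, scaling by total counts alone, no filter, DESeq2 1.42.0, a 1.5-fold minimum change (glmTreat), the replicate number as a block, and leaving out 1 library at a time. The genes and lists were chosen with earlier results of these data known, so patterns already seen are not independent support. All 10 genes were named, with up to 4 called genes per list and direction by p-value. Others were chosen after their values were seen. Promoters came from RefSeq on GRCm38.p6. Libraries of one group differed by more than sampling noise (chi-square over degrees of freedom 50.7 to 143).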

Additional observations from a re-analysis of the deposited data

How the results depend on the processing

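Across 12 alternatives, no log2 fold change of the 10 genes turned its sign, and 3 to 5 of them were called. Rel, Nfkbia and Nfkbiz were called in each. Tnfaip3 was lost in 5 and Nfkbib was gained in 1, as given above. All genes called numbered 611 in the main analysis (283 higher, 328 lower in foamy libraries). DESeq2 called 1173 (528 higher, 645 lower), and a test against a 1.5-fold change 276 (105 and 171). Scaled by total counts alone, the split was 165 higher and 614 lower, the median log2 fold change of all genes was -0.31 in place of -0.04, and that of Rela was -0.42. Without a filter 457 were higher. Leaving out each library gave 271 to 579 calls, of which 113 to 285 were higher and 158 to 294 lower. With the replicate number as a block, 391 genes were called, 159 of them higher, and 4 of the 10 genes. Whether libraries of the same number share mice is not given in the labels. Deviations of same-numbered libraries from their group means correlated at -0.071, -0.023 and -0.031 across genes. No foamy library correlated best with its own number, but such values cannot show that the libraries are unpaired. Nfkb2, Relb and Nfkbie had the fewest counts of the 10 genes, and the part of depth in their missing calls was not tested. With 3 libraries a group, small differences may go undetected.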
